A study of Mus musculus with 5 samples.

Results

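The genes of 10 neuronal RNA-binding proteins and splicing factors (*Elavl2*, *Elavl3*, *Elavl4*, *Celf3*, *Celf4*, *Nova1*, *Nova2*, *Rbfox1*, *Rbfox3* and *Srrm4*) were followed in spheres of mouse adrenal cells. They were taken by gene symbol from the 23903 genes of the deposited expression table, each at the RefSeq transcript with the highest mean over the 5 libraries. All 10 had values. The study compared how proliferation inhibitors act on sympathetic neuroblasts and on chromaffin cells, the catecholamine-secreting cells of the adrenal medulla. To obtain and characterize chromaffin cells, adrenal cells were separated by immunopanning for the cell adhesion molecule L1CAM. Both fractions were expanded as spheres and their RNA was sequenced in bulk.

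The 2 libraries of L1CAM-positive spheres carry the numbers 25 and 31, and the 3 libraries of L1CAM-negative spheres the numbers 25, 31 and 28. Numbers 25 and 28 had been cultured for 8 days and number 31 for 5 days. Numbers 25 and 31 came from an equal mix of P0 and P2 mice and number 28 from P5 mice, so that age and number 28 cannot be told apart. The labels name no transgene and no drug. The labels name C57/bl6 as the strain, and the methods name OF-1 mice for adrenal cultures. The labels call the L1CAM-positive cells chromaffin cells and the others non-adrenergic. Nothing says what the number stands for or whether libraries were from separate animals or cultures. The p-values therefore rest on the spread among these 5 libraries, and that spread may be technical.

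Neurons use tissue-restricted RNA-binding proteins to choose exons and to stabilize mRNAs. The ELAVL (Hu) proteins bind AU-rich and U-rich stretches and stabilize or help to translate the mRNAs that hold them. CELF proteins bind GU-rich, NOVA proteins YCAY and RBFOX proteins UGCAUG elements near alternative exons, and SRRM4 (nSR100) promotes the inclusion of neuronal microexons. Chromaffin cells share their neural crest origin with sympathetic neurons and make some pan-neuronal proteins.

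Levels are given as log2(FPKM + 2), a scale on which an FPKM (a read density scaled for transcript length and library size) of 0 is at 1. The offset of 2 was inferred from this lowest value, and it makes the fold changes of weakly expressed genes smaller than those of their FPKM. How deeply the libraries were sequenced is unknown. Fold changes are L1CAM-positive over L1CAM-negative spheres and come, with their standard errors (SE), from limma with Benjamini-Hochberg adjustment over all 23903 genes, and a gene was called higher or lower at an adjusted p under 0.05. In bulk samples, fewer cells of a type and less RNA per cell cannot be told apart. Of 8 chromaffin cell markers, 8 were higher in every L1CAM-positive library than in any L1CAM-negative one, and 5 were called. Their summed FPKM was 6674 to 8273 in L1CAM-positive spheres, against 119 to 521 in L1CAM-negative ones, and none was at 0 in a library. Of 8 neuron markers, 7 were called higher. All 6 adrenal cortex markers were called lower, with a summed FPKM of 1749 to 1810 against 7462 to 12643, as were 3 of 6 endothelial and 3 of 6 fibroblast and capsule markers. Of 7 glial markers 4 were called higher, and of 5 macrophage markers none was called. The part of these cell types in the results below was not tested.

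Of the 10 genes, 7 were called higher in L1CAM-positive spheres and none lower. Over all genes tested, 11.6% were called higher and 10% lower, or 21.6% in either direction. All 10 lay higher in both L1CAM-positive libraries than in any of the 3 L1CAM-negative libraries, an arrangement found in 23% of all genes, while 26% lay lower in both. It was also common in the lists below, with 17 of 25 genes of the general splicing machinery (1 lay lower in both). The same held for 9 of 16 regulators of mRNA transport and translation (4 lower) and 9 of 20 other regulators of alternative splicing (7 lower). Among the family relatives it was 4 of 7 (0 lower), and among the target mRNAs 5 of 9 (1 lower). The median log2 fold change of the 10 genes was 1.72, against 0 over all genes. The genes called were *Celf3*, *Elavl2*, *Elavl3*, *Elavl4*, *Nova1*, *Nova2* and *Srrm4*. *Celf4*, *Rbfox1* and *Rbfox3* did not pass. The number called depended on single libraries. Without L1CAM-positive number 25, *Nova1*, *Nova2* and *Srrm4* were called (3 genes), and without L1CAM-positive number 31 these and *Rbfox3* (4 genes). Without L1CAM-negative number 25, *Elavl3*, *Celf3*, *Nova2* and *Srrm4* were called (4 genes), and without L1CAM-negative number 31 these and *Elavl2* (5 genes). The robust form of the variance estimate called *Elavl3*, *Celf3*, *Nova2* and *Srrm4* (4 genes). Calls over all genes fell as well. Of all genes, 2775 were called higher in the fit that called 7 of the 10. This was 1301 without L1CAM-negative number 25, 1461 without L1CAM-negative number 31 and 797 with the robust form. The fold change of every gene stayed above 0 in each of these fits.

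**Figure D1:**
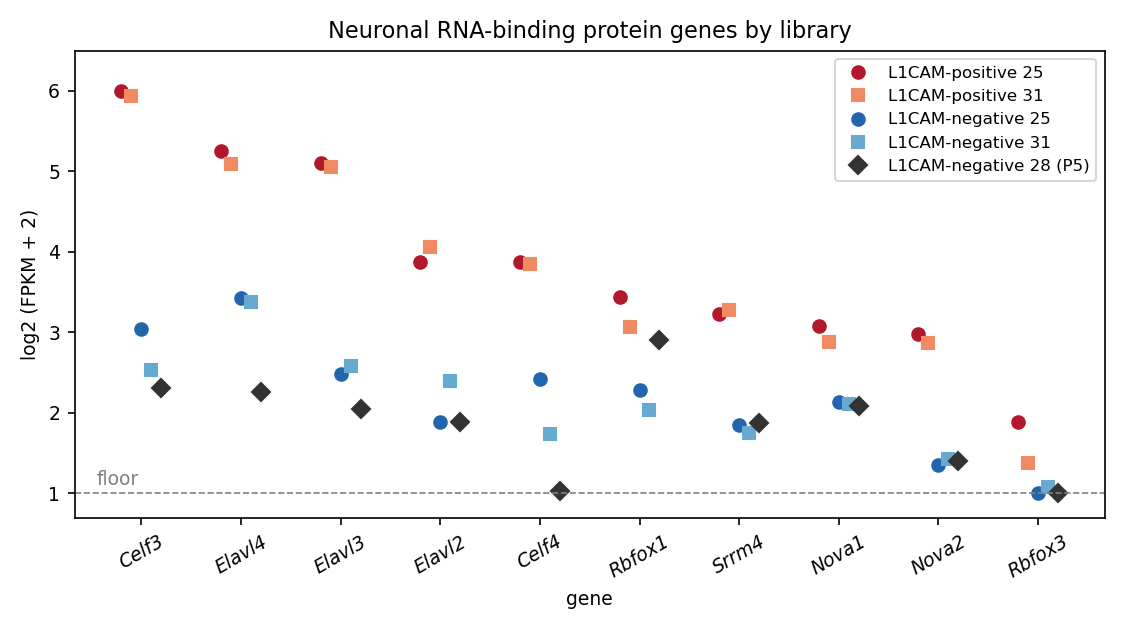
Level of each of the 10 genes as log2(FPKM + 2), 1 point per library, in order of the mean in L1CAM-positive spheres; the dashed line is the value of an FPKM of 0. The red points of the 2 L1CAM-positive libraries lie above those of the 3 L1CAM-negative libraries for every gene, and *Rbfox1* in L1CAM-negative number 28 comes closest to them.

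*Elavl3*, *Elavl4* and *Elavl2* encode HuC, HuD and HuB, the neuronal members of the ELAVL family. *Elavl3* (NM_010487, chromosome 9 of GRCm38.p6 from 22015005 to 22052146), a single transcript in the table, was at 5.10 and 5.05 in L1CAM-positive numbers 25 and 31, and at 2.49, 2.59 and 2.05 in L1CAM-negative numbers 25, 31 and 28. The L1CAM-positive libraries were nearly equal, and the P5 library was the lowest. On the log2 scale it rose by 2.70 (SE 0.20, adjusted p = 0.00685), and the mean FPKM was 31.7 against 3.25. HuC is widely used as an early marker of neurons that have left the cell cycle.

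*Elavl4* (NM_001038698, chromosome 4 from 110203737 to 110351939) was at 5.26 and 5.09 in L1CAM-positive numbers 25 and 31, and at 3.43, 3.38 and 2.26 in L1CAM-negative numbers 25, 31 and 28. Here number 28 lay far below the other L1CAM-negative libraries, and the spread of that group was wide (SD 0.66, n = 3). Its rise on the log2 scale was 2.15 (SE 0.45), with an adjusted p = 0.0498 just under the threshold. This call was lost in 10 of 17 alternatives (adjusted p 0.0117 to 0.220 over all 17). They include each fit without a library other than L1CAM-negative number 28. *Elavl4* was the highest of the 10 genes in L1CAM-negative spheres, with a mean of 3.02.

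*Elavl2* (NM_001177883, chromosome 4 from 91211533 to 91400108) was at 3.88 and 4.06 in L1CAM-positive numbers 25 and 31, and at 1.89, 2.40 and 1.89 in L1CAM-negative numbers 25, 31 and 28. It was higher in number 31 than in number 25 in both fractions, and the fractions did not overlap. L1CAM-positive spheres exceeded L1CAM-negative ones by a log2 fold change of 1.91 (SE 0.22, adjusted p = 0.0138). *Elavl1*, which encodes the HuR protein found in nearly all cell types, was at 4.55 and 4.62 against 4.25, 4.29 and 4.21. Its difference was much smaller, with a log2 fold change of 0.33 (SE 0.04, adjusted p = 0.0170). That call was lost in 6 of 17 alternatives, among them the robust form and each fit without a library other than L1CAM-negative number 28 (adjusted p 0.0149 to 0.275 over all 17).

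The 3 neuronal *Elavl* genes share a short exon in the hinge between RNA recognition motifs, a stretch known to bear on the localization of Hu proteins. The exon is shown because some transcripts of *Elavl2* and *Elavl4* in the table hold it and others do not. Its similarity does not show how alike the 3 genes are over their whole transcripts. Whether reads were shared between the genes was not examined. It has 39 bases in each gene, on the minus strand at chr4:91254141-91254179 (*Elavl2*), chr9:22024674-22024712 (*Elavl3*) and chr4:110209740-110209778 (*Elavl4*) of GRCm38, from GENCODE M21. Capitals mark the 32 bases that are identical in all 3 genes.
Elavl2: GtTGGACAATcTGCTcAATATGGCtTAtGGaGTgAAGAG
Elavl3: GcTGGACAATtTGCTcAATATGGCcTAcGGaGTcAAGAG
Elavl4: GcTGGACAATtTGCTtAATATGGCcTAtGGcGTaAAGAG

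Transcripts with this exon made up 90.6% and 93.3% of the *Elavl4* FPKM in L1CAM-positive numbers 25 and 31. The share was 84.2%, 79.8% and 69.0% in L1CAM-negative numbers 25, 31 and 28. It was thus higher in both L1CAM-positive libraries, without a test. The *Elavl4* transcript without the exon, NM_001163397, has another start site (110351909) than those with it (110286889 or 110287527). The share therefore does not come from the exon alone. In *Elavl2* the share was 86.3% and 92.5% against 99.1%, 83.5% and 99.9%, and the fractions overlapped. The *Elavl2* transcripts also differ in their start sites. The only *Elavl3* transcript in the table holds the exon. Such shares rest on the way Cufflinks divides reads between transcripts that share most of their sequence.

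Another segment of *Elavl4* is 42 bases at the start of the last coding exon (minus strand, chr4:110206660-110206701). NM_001038698 holds it and NM_001163399 lacks it. These transcripts differ in more than the segment, with coding lengths of 1140 and 1113 bases and start sites at 110287527 and 110286889. Their levels and shares below therefore do not come from the segment alone. In human, proteins with and without the matching segment are known as HuD and HuDpro. The segment is given in capitals between 10 flanking bases of the transcript on each side, of which those before it are the end of the hinge exon above.
Elavl4 segment: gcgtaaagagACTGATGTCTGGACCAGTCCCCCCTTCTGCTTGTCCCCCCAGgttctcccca
Transcripts with it made up 52.2% and 50.6% of the *Elavl4* FPKM in L1CAM-positive spheres. The share was 55.4%, 56.2% and 34.0% in L1CAM-negative numbers 25, 31 and 28, so that the P5 library was the lowest and the others the highest. NM_001163399, which lacks the segment, stood at 4.84 and 4.86 against 2.72, 2.47 and 2.29. With every transcript tested on its own, its log2 fold change was 2.36 (SE 0.15, adjusted p = 0.00716), whereas NM_001038698 missed the threshold in that fit (adjusted p = 0.0565). Summed over its 4 transcripts, *Elavl4* had an FPKM of 69.6 and 63.4 in L1CAM-positive spheres and of 15.9, 14.9 and 8.27 in L1CAM-negative spheres.

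*Celf3* and *Celf4* encode brain-enriched members of the CELF family of splicing and translation regulators. *Celf3* (NM_001289613, chromosome 3 from 94478285 to 94496786) was the highest of the 10 genes in L1CAM-positive spheres and had the largest log2 fold change among them on this scale. It was at 6.0 and 5.93 in L1CAM-positive numbers 25 and 31, above 93.5% and 93.1% of the genes of those libraries. It was at 3.04, 2.54 and 2.31 in L1CAM-negative numbers 25, 31 and 28. The fractions were wide apart, and number 28 was again the lowest. The log2 fold change was 3.34 (SE 0.26, adjusted p = 0.00738), and the mean FPKM was 60.5 against 4.32, a ratio of 14.0. With an offset of 0.1 in place of 2, the log2 fold changes of *Celf3* and *Celf4* were nearly equal (3.84 and 3.82). The FPKM of *Rbfox3* had a larger ratio (28.9), from means of 1.15 and 0.0399 near the lowest value. The table holds 5 *Celf3* transcripts, of which 4 were called higher in the fit of separate transcripts, and their summed FPKM was 148 and 119 against 11.6, 9.79 and 5.41. The remaining one, NM_172434, was at 4.84 in L1CAM-positive number 25 and 3.59 in number 31, a gap that no other *Celf3* transcript showed. Transcripts with an 84-base extension of a coding exon (chromosome 3 from 94487703 to 94487786) made up 45.9% and 53.5% of the coding *Celf3* FPKM in L1CAM-positive spheres. In L1CAM-negative spheres the share was 56.4%, 43.8% and 57.0%, which overlapped.

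*Celf4* (NM_133195, chromosome 18) was at 3.88 and 3.85 in L1CAM-positive numbers 25 and 31, and at 2.42, 1.74 and 1.03 in L1CAM-negative numbers 25, 31 and 28. The L1CAM-negative libraries were spread widely, with number 28 close to the lowest value of the table. The log2 fold change of 2.13 (SE 0.47) missed the threshold with an adjusted p = 0.0559. It passed in 5 of 17 alternatives, among them the sum over transcripts. The choice of transcript matters for number 28. Summed over its 6 transcripts, *Celf4* had an FPKM of 38.7 and 38.2 in L1CAM-positive spheres and of 6.73, 7.06 and 7.30 in L1CAM-negative numbers 25, 31 and 28, so that number 28 was no longer low. In that library NM_001146293 took 45.1% of the *Celf4* FPKM, against 0.404% and 3.22% in L1CAM-negative numbers 25 and 31.

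The other CELF genes fell into separate sets. *Celf6* was at 4.96 and 4.89 against 1.80, 1.94 and 1.91, and *Celf5* was at 2.63 and 2.49 against 1.49, 1.65 and 1.65. Both encode CELF proteins of the same subgroup as CELF3 and CELF4, and both rose, with log2 fold changes of 3.04 (SE 0.07, adjusted p = 0.00287) and 0.97 (SE 0.09, adjusted p = 0.00926). The call of *Celf5* was lost in 3 of 17 alternatives, among them the robust form (adjusted p = 0.0753) and the fit without L1CAM-positive number 25 (adjusted p = 0.0540), with a range of 0.00247 to 0.0973 over all 17. *Celf1* and *Celf2*, which are expressed in many tissues, were not called, with log2 fold changes of -0.02 (SE 0.24) and -0.02 (SE 0.80). *Celf2* was at 2.95 and 2.97 in L1CAM-positive spheres and at 3.64, 3.68 and 1.62 in L1CAM-negative numbers 25, 31 and 28. Without number 28 it was called lower in L1CAM-positive spheres, with a log2 fold change of -0.70 and an adjusted p = 0.0158. Summed over 8 transcripts, *Celf2* had an FPKM of 10.6 and 12.1 against 21.1, 22.9 and 14.1, and the fractions did not overlap, but this sum was not called (log2 fold change -0.66, adjusted p = 0.143).

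**Figure D2:**
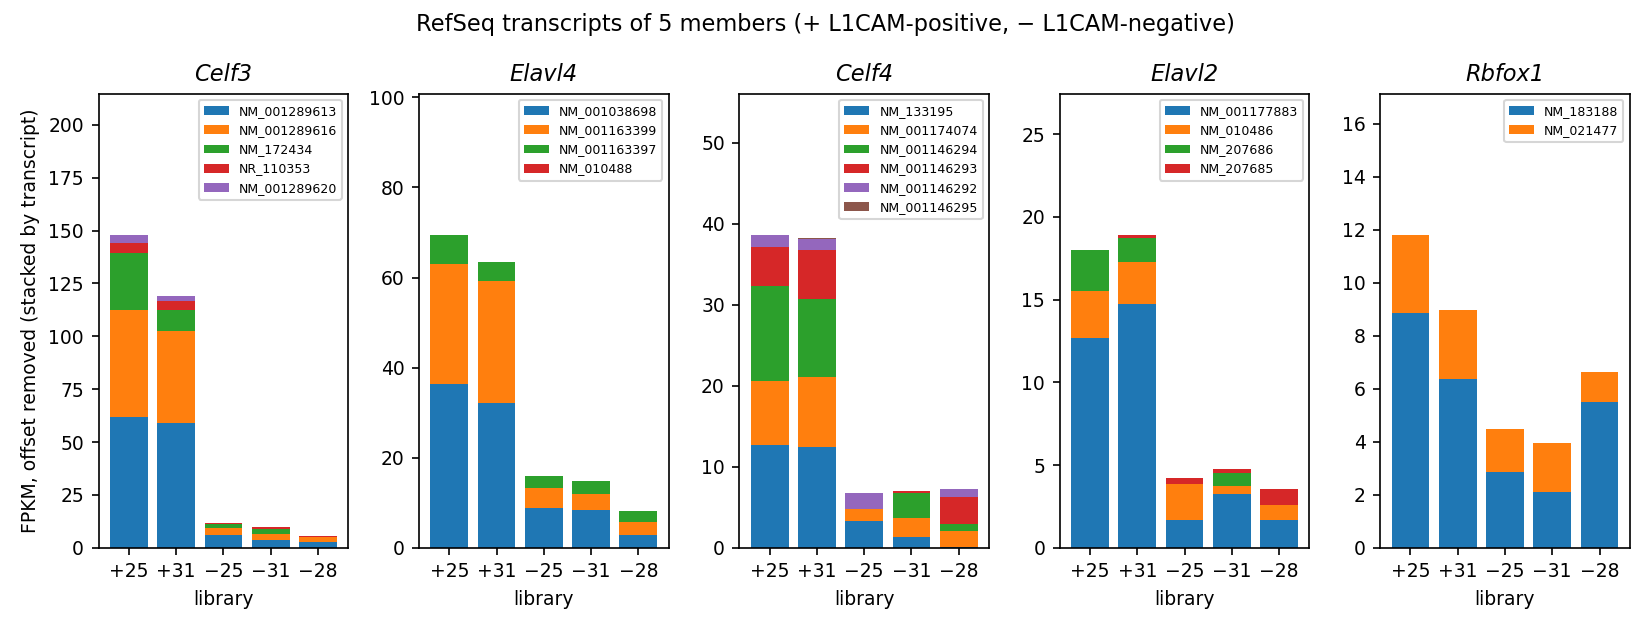
FPKM (offset of 2 removed) of the RefSeq transcripts of 5 genes, stacked, in each library; + is L1CAM-positive and − L1CAM-negative, and each panel has its own scale. All 5 sums were higher in both L1CAM-positive libraries, and the make-up of *Celf4* differed between the L1CAM-negative libraries.

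*Nova1* and *Nova2* encode the NOVA proteins, first known as the antigens of a paraneoplastic disorder, which regulate exons of synaptic genes. *Nova2* (NM_001029877, chromosome 7 from 18925888 to 18965319) was at 2.98 and 2.87 in L1CAM-positive numbers 25 and 31, and at 1.35, 1.42 and 1.40 in L1CAM-negative numbers 25, 31 and 28. The 3 L1CAM-negative libraries, the P5 one included, were nearly equal. The log2 fold change of 1.53 (SE 0.06, adjusted p = 0.00377) had the smallest adjusted p among the 10 genes, and the mean FPKM was 5.58 against 0.622.

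*Nova1* (NM_021361, chromosome 12 from 46697895 to 46819480) was at 3.08 and 2.89 in L1CAM-positive numbers 25 and 31, and at 2.13, 2.11 and 2.08 in L1CAM-negative numbers 25, 31 and 28. L1CAM-negative spheres held more *Nova1* than *Nova2* in all 3 libraries, whereas the levels of both overlapped in L1CAM-positive spheres. The fitted log2 difference was 0.88 (SE 0.09, adjusted p = 0.0113). This call was lost in 4 of 17 alternatives, among them the fits without L1CAM-negative number 25 or number 31 and the robust form (adjusted p 0.00266 to 0.0886 over all 17).

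*Srrm4* encodes the activator of neuronal microexons that, in mouse, also promotes an alternative exon in the mRNA of the repressor REST. It (NM_026886, chromosome 5 from 116439268 to 116592562) was at 3.23 and 3.28 in L1CAM-positive numbers 25 and 31, and at 1.85, 1.75 and 1.87 in L1CAM-negative numbers 25, 31 and 28. Both groups were tight, and the P5 library did not stand apart. On the log2 scale it rose by 1.43 (SE 0.07, adjusted p = 0.00467). *Nova2* and *Srrm4* passed in 16 of 17 alternatives, all but the fit with the number as a block, more than any other of the 10 genes. The related *Srrm3*, which also acts on microexons, was at 3.59 and 3.61 against 1.81, 1.77 and 1.35, and its log2 fold change was 1.96 (SE 0.18, adjusted p = 0.00994). The call of *Srrm3* was lost in 3 of 17 alternatives, among them the fits without either L1CAM-positive library (adjusted p 0.00150 to 0.0697 over all 17).

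*Rest* encodes the repressor of neuronal genes in other cells, and *Srrm4* is among its known targets. *Rest* stood at 2.34 and 2.43 in both L1CAM-positive libraries and at 3.79, 3.93 and 3.83 in L1CAM-negative spheres. *Rest* was thus low where *Srrm4* was high, and a link between them was not tested. The log2 fold change was -1.46 (SE 0.07, adjusted p = 0.00467), and it passed in 16 of 17 alternatives.

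*Rbfox1* and *Rbfox3* encode splicing regulators of neurons, the first also of muscle, and the RBFOX3 protein is the neuronal nuclear antigen NeuN. *Rbfox1* (NM_183188, chromosome 16 from 5884793 to 7412480) was at 3.44 and 3.06 in L1CAM-positive numbers 25 and 31, and at 2.28, 2.04 and 2.91 in L1CAM-negative numbers 25, 31 and 28. It was the 1 gene among the 10 with a clearly higher level in the P5 library than in the other L1CAM-negative libraries. The log2 fold change of 0.84 (SE 0.33) was not called (adjusted p = 0.185), and it passed in 0 of 17 alternatives. *Rbfox3* (NM_001285436, chromosome 11 from 118489760 to 118911597) was at 1.89 and 1.38 against 1.00, 1.08 and 1.00, at or near the lowest value in every L1CAM-negative library. The difference of 0.61 on the log2 scale (SE 0.18) was not called (adjusted p = 0.0991), and it passed in 3 of 16 alternatives. One of them was the sum over its 6 transcripts, with an FPKM of 2.14 and 1.97 against 0.529, 0.192 and 0.363 (log2 difference 0.78, adjusted p = 0.00907). NM_001285436 held 79.9% of that sum in L1CAM-positive number 25 and 30.4% in number 31. *Rbfox2*, the widely expressed relative, was at 4.24 and 4.05 against 4.59, 4.43 and 3.82. The fractions overlapped, and the log2 fold change was -0.14 (SE 0.28, adjusted p = 0.895).

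The *Rbfox1* transcripts of the table differ by 2 alternative exons that are known from brain and muscle. The 40-base exon (plus strand, chr16:7363865-7363904 of GRCm38) is that of the brain form and is held by NM_021477. The 43-base exon (plus strand, chr16:7369801-7369843) is that of the muscle form and is held by NM_183188. They are given in capitals between 10 flanking bases of the transcript on each side, which are the same in both.
Rbfox1 brain form: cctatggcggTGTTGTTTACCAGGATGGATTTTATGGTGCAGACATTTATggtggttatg
Rbfox1 muscle form: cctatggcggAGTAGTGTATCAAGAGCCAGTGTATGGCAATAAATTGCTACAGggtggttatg
The transcript with the 40-base exon made up 24.9% and 29.1% of the *Rbfox1* FPKM in L1CAM-positive spheres. In L1CAM-negative numbers 25, 31 and 28 it made up 36.3%, 46.8% and 17.1%, which overlapped with L1CAM-positive spheres. The transcript with the 43-base exon had the larger share in all 5 libraries. The transcripts also differ in their start sites, so that these shares do not come from the exons alone. The rise of *Rbfox1* in number 28 was that of NM_183188, at an FPKM of 5.51 against 2.86 and 2.10, while NM_021477 was at 1.14 against 1.63 and 1.85.

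**Figure D3:**
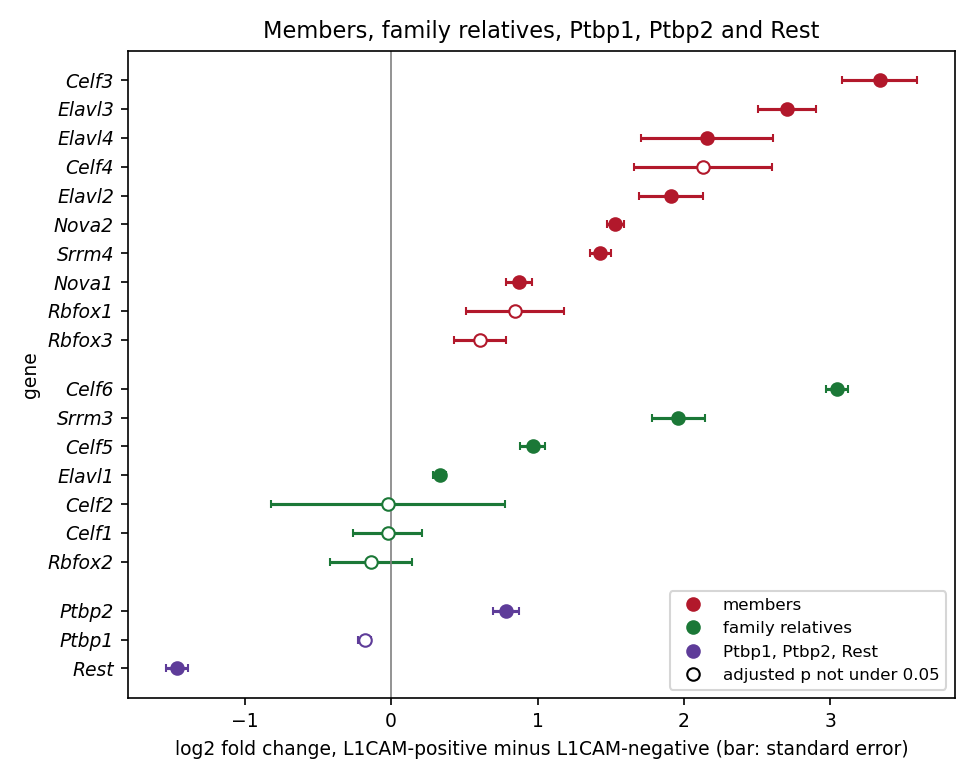
Log2 fold change (L1CAM-positive minus L1CAM-negative) with its standard error from limma for the 10 genes, their 7 family relatives and *Ptbp1*, *Ptbp2* and *Rest*; filled points had an adjusted p under 0.05. *Celf3* (3.34) was the highest and *Rest* (-1.46) the lowest, and *Celf1*, *Celf2* and *Rbfox2* lay near 0 with wide errors.

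In L1CAM-positive spheres the order of the levels was *Celf3*, *Elavl4*, *Elavl3*, *Elavl2*, *Celf4*, *Rbfox1*, *Srrm4*, *Nova1*, *Nova2* and *Rbfox3*. Neighbours overlapped between libraries for *Elavl4* and *Elavl3*, *Elavl2* and *Celf4*, *Rbfox1* and *Srrm4*, and *Nova1* and *Nova2*, and the other neighbours were apart in both libraries. In L1CAM-negative spheres the order was *Elavl4*, *Celf3*, *Rbfox1*, *Elavl3*, *Nova1*, *Elavl2*, *Srrm4*, *Celf4*, *Nova2* and *Rbfox3*. There, only *Elavl2* and *Srrm4*, and *Nova2* and *Rbfox3*, were neighbours with no overlap. Summed over all 31 transcripts of the 10 genes, the FPKM was 340 and 300 in L1CAM-positive spheres, against 51.6, 49.0 and 38.2 in the L1CAM-negative libraries. With every transcript tested on its own, 11 of the 31 were called higher, beside 3114 of all 32535 transcripts. Of the 11, 4 were of *Celf3*, and transcripts of the same gene are not independent.

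The level that remained in L1CAM-negative spheres differed between the genes. Divided by the L1CAM-positive library of the same number, the median FPKM in L1CAM-negative spheres was 17.6% for number 25 (10 genes) and 17.8% for number 31 (9 genes with at least 1 FPKM in that L1CAM-positive library). For number 28, over the mean of both L1CAM-positive libraries, it was 11.5%. The chromaffin cell markers stood at 5.82%, 6.98% and 1.38%, and the neuron markers at 12.1%, 12.2% and 8.27%. Among the 10 genes, *Nova1* kept 36.9%, 43% and 37.6% and *Rbfox1* 32.2%, 33.0% and 72.4%. *Celf3* kept 10.1%, 6.45% and 4.87%. *Elavl4*, *Celf3* and *Elavl3* were lower in number 28 than in L1CAM-negative number 25, by log2 differences of -1.17, -0.73 and -0.44, and of -0.80, -0.87 and -0.44 with transcripts summed. For *Celf4* the sign depended on the transcripts, with -1.39 for NM_133195 and 0.09 for the sum. *Elavl2*, *Nova1*, *Nova2*, *Srrm4* and *Rbfox3* differed by at most 0.05 in size between these libraries (0.17 with transcripts summed), and *Rbfox1* was higher by 0.63 (0.42 summed). Number 28 is 1 library, and these differences have no test. The summed FPKM of the chromaffin cell markers was also lower in number 28 (119) than in L1CAM-negative numbers 25 and 31 (498 and 521), and its part in the differences was not tested.

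**Figure D4:**
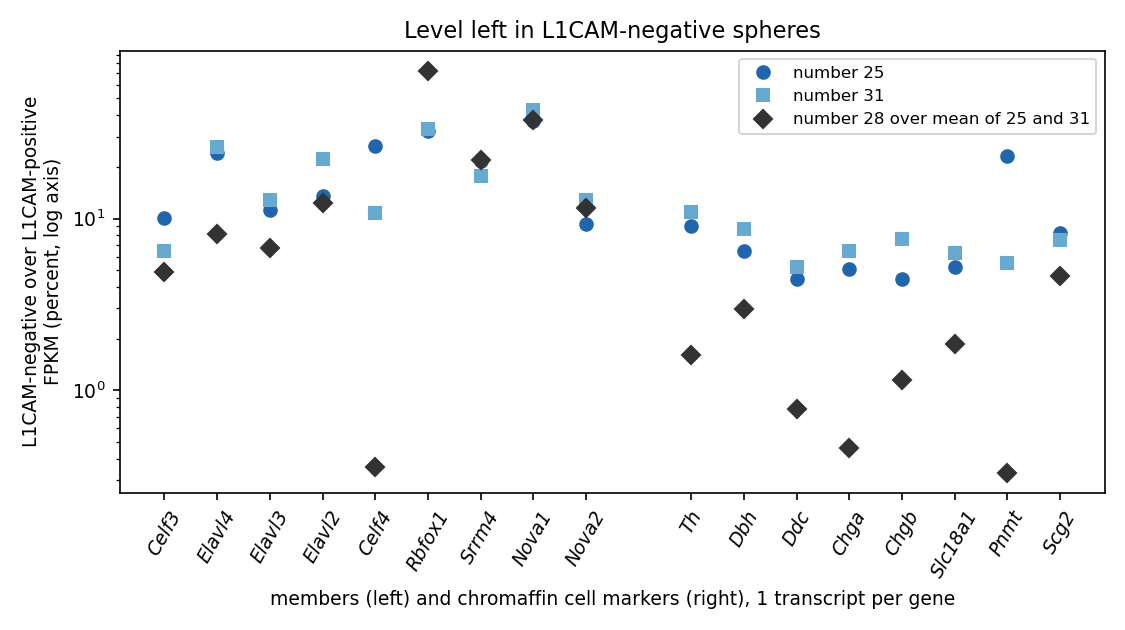
FPKM in L1CAM-negative spheres as a percentage of that in L1CAM-positive spheres (log axis), for 9 of the 10 genes, each at 1 transcript, on the left and the 8 chromaffin cell markers on the right; numbers 25 and 31 are set against the same number, number 28 against the mean of both. *Rbfox3* is left out because it was below 1 FPKM in L1CAM-positive number 31. *Nova1* and *Rbfox1* lie highest, and the 0.356% of *Celf4* in number 28 is that of NM_133195 alone, against 19.0% over all its transcripts.

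Levels of the 10 genes at 8 and 5 days of culture were set side by side, without a test. The offset makes changes of low genes small, as for *Rbfox3* (NM_001285436), with an FPKM of 1.71 and 0.600 in L1CAM-positive numbers 25 and 31. Within L1CAM-positive spheres, the log2 level in number 25 less that in number 31 ran from -0.19 (*Elavl2*) to 0.51 (*Rbfox3*). Within L1CAM-negative spheres it ran from -0.51 (*Elavl2*) to 0.68 (*Celf4*). With transcripts summed, these ranges narrowed to -0.06 (*Elavl2*) to 0.33 (*Rbfox1*) and to -0.11 (*Elavl2*) to 0.21 (*Rbfox3*), and *Celf4* turned to -0.05 in L1CAM-negative spheres. There is 1 library for each period and fraction, so that culture period and number cannot be told apart. The summed FPKM of the glial markers, 58.7 in L1CAM-positive number 25 and 126.3 in number 31, differed in the same libraries, and its part was not tested. The difference between fractions was above 0 for all 10 genes both within number 25 (0.89 to 2.96) and within number 31 (0.29 to 3.39).

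Other regulators of alternative splicing did not share 1 direction. Of 20 such genes, 6 were called higher (30%) and 3 lower (15%), beside 11.6% and 10% of all genes. Their median log2 fold change was 0.07. *Rbm24*, a splicing factor known from muscle, rose by 2.06 on the log2 scale (adjusted p = 0.0107), and *Khdrbs2* (SLM1), which regulates neurexin exons in neurons, by 2.02 (adjusted p = 0.00815). *Rbpms2* and *Rbpms*, splicing regulators of smooth muscle, had log2 fold changes of -1.84 (adjusted p = 0.00969) and -1.64 (adjusted p = 0.0189). *Mbnl2* was not called (log2 fold change 0.11, adjusted p = 0.829). Without 1 library, between 2 (without either L1CAM-positive library) and 7 (without L1CAM-negative number 28) were called higher. Between 1 (without any 1 of the libraries other than number 28) and 5 (without number 28) were then called lower. The robust form called 2 higher (*Khdrbs2* and *Rbm24*) and 1 lower (*Rbpms2*).

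The switch from PTBP1 to its neuronal relative PTBP2 is a known step of neuronal splicing. *Ptbp2* stood at 5.26 and 5.24 against 4.62, 4.41 and 4.39, and it rose by 0.78 on the log2 scale (SE 0.09, adjusted p = 0.0136). It was chosen after its values were seen. Its call was lost in 5 of 17 alternatives, among them the robust form and the fits without either L1CAM-positive library or L1CAM-negative number 31 (adjusted p 0.00380 to 0.0933 over all 17). *Ptbp1* was at 5.59 and 5.72 against 5.84, 5.85 and 5.82. It was lower in both L1CAM-positive libraries, but its log2 fold change of -0.18 (SE 0.05) was not called (adjusted p = 0.0772) and passed in 0 of 17 alternatives. *Qk*, also chosen after its values were seen, encodes the quaking protein of glia and other cells and was the other gene of the 20 called lower (-0.74 on the log2 scale, adjusted p = 0.0169).

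Of 16 regulators of mRNA transport and translation, 4 were called higher (25%) and 2 lower (12.5%), beside 11.6% and 10% of all genes. Their median log2 fold change was 0.22. *Cpeb1*, which binds cytoplasmic polyadenylation elements, rose by 1.67 on the log2 scale (adjusted p = 0.0291). *Msi1* and *Msi2*, the Musashi genes of neural progenitors, rose by 1.54 (adjusted p = 0.0168) and 0.78 (adjusted p = 0.00397), and *Fxr2*, a relative of the fragile X gene, by 0.48 (adjusted p = 0.0109). *Igf2bp3* and *Igf2bp1*, which are known from fetal tissues, had log2 fold changes of -1.12 (adjusted p = 0.0191) and -0.68 (adjusted p = 0.0138). Without 1 library, between 1 (without either L1CAM-positive library or L1CAM-negative number 31) and 5 (without number 28) were called higher. The number called lower was then 0 without either L1CAM-positive library (3 at an unadjusted p under 0.05), 1 without L1CAM-negative number 25 or 31 and 2 without number 28. The robust form of limma called 0 in either direction, with 5 higher and 3 lower at an unadjusted p under 0.05. With a term for culture days *Cpeb1* and *Msi1* were not called, which left 2 higher.

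Of 25 genes of the general splicing machinery, 3 were called higher and 1 lower, beside 11.6% and 10% of all genes. Their median log2 fold change was 0.29. *Snrpn*, which encodes the neuronal Sm protein SmN and shares its transcript with *Snurf*, was at 5.45 and 6.30 against 3.66, 3.63 and 3.55. It rose by 2.27 on the log2 scale (SE 0.29, adjusted p = 0.0172), a call lost without any 1 L1CAM-negative library (adjusted p between 0.0514 and 0.0734). The core factor *Prpf8* rose by 0.34 (adjusted p = 0.0355), and *Srsf9* stood at a log2 difference of -0.28 (adjusted p = 0.0342). *Hnrnpa2b1* and *Srsf2*, the highest of the list, were not called, with 0.32 (adjusted p = 0.109) and 0.30 (adjusted p = 0.129). Without 1 library, the number called higher was 0 without L1CAM-negative number 25 (10 at an unadjusted p under 0.05), 1 without either L1CAM-positive library or L1CAM-negative number 31 and 2 without number 28, and none was called lower (1 to 2 at an unadjusted p under 0.05). With transcripts summed or genes under 1 FPKM left out, 7 were called higher. The robust form of limma called 0 in either direction, with 1 higher and 0 lower at an unadjusted p under 0.05.

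Of 9 mRNAs known as targets of these proteins, 3 were called higher (33.3%) and 1, *Rest*, lower (11.1%), beside 11.6% and 10% of all genes. *Gap43*, whose mRNA is stabilized by HuD, stood at 6.96 and 7.24 against 4.18, 4.50 and 4.40 and rose by 2.74 on the log2 scale (SE 0.15, adjusted p = 0.00500). *Gap43* is also among the neuron markers. *Agrn*, of which NOVA proteins regulate the exons that cluster acetylcholine receptors, rose by 0.98 (SE 0.15, adjusted p = 0.0261). *Dlg4*, a postsynaptic scaffold gene chosen after its values were seen, rose by 0.98 (SE 0.16, adjusted p = 0.0310). *Gap43* was the 1 gene called higher with the robust form and without either L1CAM-positive library or L1CAM-negative number 25. The table gives the amount of each transcript and not the use of most of the exons that these proteins are known to regulate.

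**Figure D5:**
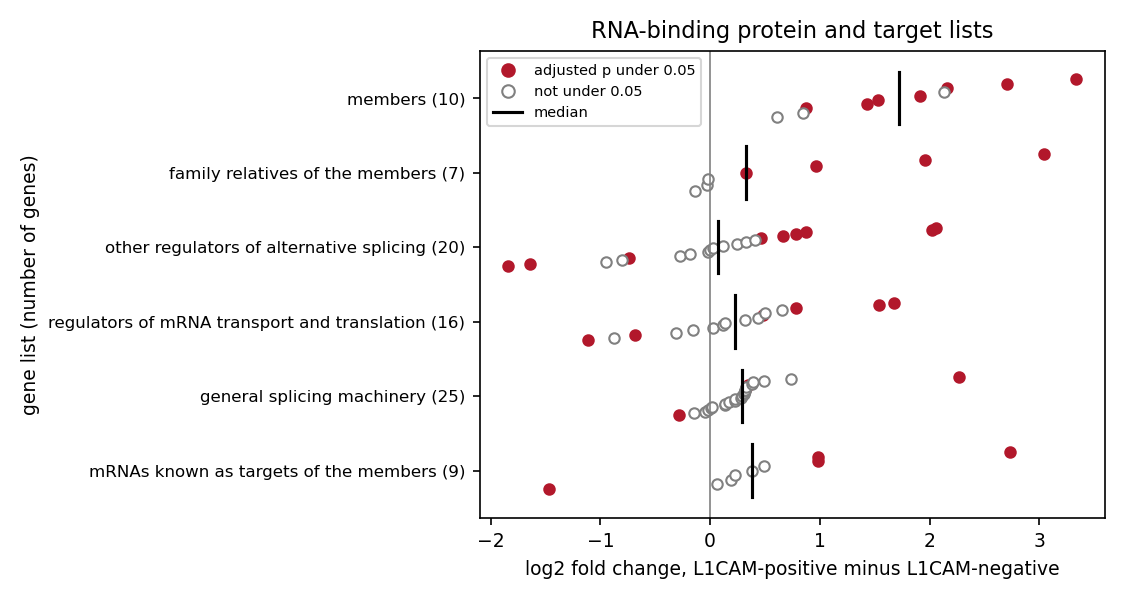
Log2 fold change (L1CAM-positive minus L1CAM-negative) of each gene in 6 lists, 1 point per gene, with the median of each list as a line; red points had an adjusted p under 0.05. The 10 genes lie to the right of 0 with a median of 1.72, and the medians of the other lists lie between 0.07 and 0.38.

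The genes whose profile over the 5 libraries was most like the mean profile of the 10 were sought among 9768 other genes with a mean level of at least 3, by the root mean square difference of the centred log2 values. They were *Prnp* (0.04), *Rsph9* (0.05), *Ap2a2* (0.06), *Dtx1* (0.07) and *Plekha5* (0.07). Each of the 10 genes lay farther from that mean profile, from 0.16 (*Nova2*) to 0.79 (*Celf3*), so that the match is to an average and not to single genes. *Prnp*, the prion protein gene, was at 8.06 and 7.83 in L1CAM-positive numbers 25 and 31, and at 6.32, 6.20 and 6.05 in L1CAM-negative numbers 25, 31 and 28.

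Promoters are given because 9 of the 10 genes, all but *Celf4*, matched a RefSeq window of 250 bases before to 50 after a start site (GRCm38.p6), with 24 windows in all, some of which overlap. E-boxes, the elements of the basic helix-loop-helix factors of neurogenesis, were searched on both strands in 3 forms, the palindrome CAGCTG, the form that reads CAGGTG and the form that reads CATCTG, and the core of the REST element (RE1) by name. CAGCTG was in 11 of 24 windows (45.8%), of 6 genes, and in 16.3% of all 32851 windows. CAGGTG was in 7 windows of 4 genes (29.2%, against 20.2% of all) and CATCTG in 7 windows of 3 genes (29.2%, against 17.2%). The REST core was in 0 of 24, and it is so rare (0.164% of all) that its absence from 24 windows is not informative. As windows of the same gene can overlap, these percentages do not count separate promoters. A match is no more than these letters in this window. The window of *Elavl3* is shown because this gene has 1 transcript and 1 of the largest fold changes (minus strand, chr9:22051974-22052273, 65.3% G and C). Capitals mark its E-boxes, of which the first reads CAGGTG on the other strand and the other is CAGCTG.
Elavl3 promoter: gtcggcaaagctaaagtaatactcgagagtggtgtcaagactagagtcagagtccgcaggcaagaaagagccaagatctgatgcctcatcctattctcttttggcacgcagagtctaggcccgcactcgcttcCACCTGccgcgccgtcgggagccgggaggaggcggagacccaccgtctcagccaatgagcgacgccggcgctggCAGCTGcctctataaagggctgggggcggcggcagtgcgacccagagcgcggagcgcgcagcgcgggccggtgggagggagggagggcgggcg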

How the data were processed

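RNA of 5 bulk libraries (TruSeq stranded mRNA) was measured. The authors used STAR 2.6.1a with mm10, Cufflinks for FPKM and quantile normalization in limma, and they deposited log2 values for 32737 RefSeq transcripts. The offset (2) was inferred from the lowest value, exactly 1. The annotation release and the number of samples in the normalization are not given in the sources used here. The depth is unknown, so counting errors could not be given.

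The 202 transcripts without a symbol were left out, and for 4743 symbols with several transcripts the one with the highest mean was kept. The fractions were compared in all 23903 genes with limma 3.58.1 (lmFit, eBayes with a mean-variance trend; R 4.3.3), 2-sided, with Benjamini-Hochberg adjustment and a threshold of 0.05. An exact permutation test of 2 against 3 libraries cannot go below p = 0.1. The procedure was tested on simulated data with independent noise in each library. Such data do not cover effects of shared numbers, age or culture period. Tables and plots used Python 3.11.15, pandas 2.3.3, numpy 2.4.6 and matplotlib 3.10.9. Linear values are 2 to the power of the deposited value, less the offset.

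The 10 genes, the lists and the markers were chosen with earlier results of these data known. Named genes are the 10, their 7 family relatives and, from each other list, the 2 that rose most and the 2 that fell most past the threshold, the 2 of highest mean, and the 5 genes most like the 10. *Qk* was listed under its older symbol and matched through a RefSeq synonym. Exons come from GENCODE M21, which held 30 of the 31 transcripts, and gene coordinates and promoters from RefSeq on GRCm38.p6. Alternatives were offsets of 0.1 and 5, 2 filters on low values, summed or separate transcripts, 2 other normalizations, eBayes without trend or in robust form, a block for the number, a term for culture days, and each library left out in turn. Where this left 1 L1CAM-positive library, its spread was assumed to be that of the L1CAM-negative ones.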

Additional observations from a re-analysis of the deposited data

How the results depend on the processing

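All 10 genes had a fold change above 0 in each of 17 alternatives (*Rbfox3* in the 16 in which it was tested). As the fractions did not overlap for any of them, this sign was fixed in advance for the robust form and for each library left out. Of all genes, 797 were called higher and 352 lower with the robust form, 1727 and 1273 with a term for culture days, and, with 1 library left out, 1301 to 2805 and 521 to 2942. Of the 10 genes, 4 were called higher with the robust form and 3 to 7 with 1 library left out. Settings other than these and the block gave 6 to 9, the latter with transcripts summed or genes at the lowest value left out. *Celf1*, not called, changed sign with transcripts summed (0.072), a block for the number (0.17), a term for culture days (0.023), and without L1CAM-positive number 31 (0.038) or number 28 (0.17), between -0.16 and 0.17 over the libraries left out. *Celf2* did with an offset of 0.1 (0.19) and without L1CAM-negative number 25 (0.31) or 31 (0.33), with a range of -0.70 to 0.33, and *Rbfox2* with transcripts summed (0.069) and without L1CAM-negative number 25 (0.019), with a range of -0.37 to 0.019. The cause was not tested.

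The number as a replicate block, with number 28 then informing no contrast, left 0 of all genes called higher, 0 lower and 0 of the 10 genes called in limma, with 8417 genes and 9 of the 10 at an unadjusted p under 0.05. The fit without the block called 2775, 2393 and 7. Only 2 numbers are shared between the fractions and the labels do not say what they mark. The differences of number 25 less 31 in the fractions had a correlation of 0.21 across 16032 genes, which are not independent. Unknown depth limits the low genes, *Rbfox3* above all.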
